A study of Mus musculus with 4 samples.

Results

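The regions described here are the 3000 bases directly upstream of a gene whose nearest neighbour on that side is transcribed away from it, so that both 5′ ends face the same stretch of DNA. Of 30166 upstream regions counted on both strands, 1194 were of this kind. They were chosen by position on chromosomes 1 to 19 (a facing gene on the opposite strand within 10 kb of the outer edge of the region, and no gene inside it) and by the gene that owns the region, which had a mean of at least 100 reads over the WT libraries. RNA came from whole mouse testes at postnatal day 17. Of the 4 strand-specific libraries, 2 were labelled Dis3 WT and 2 Dis3 KO, the latter called conditional knockouts in the design text, and all were of the strain given as B6D2F1 inbred. The Cre driver, and with it the cell type that lost Dis3, is not given in the sources used here. Whether each library stands for an animal of its own is not said in the labels, so the p-values below reflect the spread among 4 libraries, which may be technical.

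Many promoters start RNA polymerase II in both directions. The transcripts that leave against the gene are called promoter upstream transcripts; as a rule they are cut and polyadenylated early and are then degraded from the 3′ end by the nuclear RNA exosome. DIS3 is a catalytic ribonuclease of that complex. Between head-to-head genes, the antisense strand of a gene's upstream region is also the strand on which the neighbour is transcribed, while the sense strand of the region is the one on which upstream transcripts of the neighbour run back toward the gene.

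Promoter sequence is shown for 4 regions on which the results below turn. Antisense reads upstream of Hnrnpc and A430005L14Rik were called higher in KO under every setting tried. Both entered the main test through the KO libraries alone. Maco1 and Fam32a were the 2 head-to-head regions whose strands differed in their change. The letters are from RefSeq on GRCm38.p6, run 5′ to 3′ on the strand of the gene and end at the gene start; the files use GRCm38.p5. Capitals mark the CCAAT box (on the other strand it reads ATTGG), the GC box GGGCGG (on the other strand it reads CCGCCC) and the TATA motif TATAAA (on the other strand it reads TTTATA), and overlapping matches run together.
Hnrnpc, chr14:52104029-52104271, minus strand: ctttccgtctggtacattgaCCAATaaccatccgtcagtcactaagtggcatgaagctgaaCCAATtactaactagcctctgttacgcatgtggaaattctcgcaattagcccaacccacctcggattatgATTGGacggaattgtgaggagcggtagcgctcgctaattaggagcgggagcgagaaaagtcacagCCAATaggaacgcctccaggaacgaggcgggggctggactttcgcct
A430005L14Rik, chr4:153956987-153957236, plus strand: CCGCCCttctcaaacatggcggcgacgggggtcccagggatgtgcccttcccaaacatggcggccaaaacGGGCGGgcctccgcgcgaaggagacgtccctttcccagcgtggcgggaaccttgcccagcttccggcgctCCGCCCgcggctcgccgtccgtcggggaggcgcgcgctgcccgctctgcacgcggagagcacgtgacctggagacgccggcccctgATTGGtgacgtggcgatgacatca
Maco1, chr4:134853346-134853595, minus strand: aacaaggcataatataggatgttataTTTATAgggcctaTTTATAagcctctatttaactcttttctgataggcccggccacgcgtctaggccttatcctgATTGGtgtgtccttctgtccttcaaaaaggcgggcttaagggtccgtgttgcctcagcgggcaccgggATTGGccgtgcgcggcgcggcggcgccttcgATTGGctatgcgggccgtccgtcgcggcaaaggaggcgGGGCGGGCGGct
Fam32a, chr8:72219495-72219729, plus strand: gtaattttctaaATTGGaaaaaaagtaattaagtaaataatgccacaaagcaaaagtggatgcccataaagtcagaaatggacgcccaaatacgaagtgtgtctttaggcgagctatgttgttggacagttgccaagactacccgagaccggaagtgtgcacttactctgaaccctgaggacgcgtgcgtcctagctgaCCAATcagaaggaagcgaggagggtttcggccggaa

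All 4 windows held the CCAAT box, the motif known for binding NF-Y, on at least 1 strand, and the windows of Maco1 and A430005L14Rik also held the GC box GGGCGG. The window of Maco1 was the only one of the 4 with a TATA motif, which lay on the antisense strand. A RefSeq window starting within 100 bases of the annotated gene start was found for 703 of the 1194 members (58.9%), too few for a check of sequence properties over the members, which is therefore void. In the 250 bases before the start, CCAAT was found on the gene strand in 22.0% of these 703 and in 19.1% of all 32851 RefSeq windows, and on the antisense strand in 23.3% and 19.7%. GGGCGG was found on the gene strand in 36.8% and 20.5%, and on the antisense strand in 37.1% and 19.5%. TATAAA was found on the gene strand in 5.55% and 7.59%, and on the antisense strand in 3.41% and 6.26%. The polyadenylation signal AATAAA was found on the antisense strand in 5.69% and 9.49%, and the 5′ splice site motif GGTAAG on that strand in 2.56% and 3.72%. On the gene strand AATAAA was found in 7.82% and 10.4%, and GGTAAG in 1.85% and 4.26%.

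Of the genes that own the regions, 1129 were protein coding, 28 processed pseudogenes and 18 lincRNAs. The facing genes were more mixed, with 731 protein coding, 193 processed pseudogenes and 109 lincRNAs, and 544 of the 1194 had a mean of at least 100 reads in WT. The facing gene lay 3 to 9979 bases beyond the outer edge of the region, with a median of 4288. In 268 pairs both genes owned a region of the set, and 91 of these pairs had regions that overlap, where the same reads can count as antisense of one gene and as sense of the other. At the edges of the rule, Gm37607 had a mean of 100 reads and was kept, whereas Eif3s6-ps3 had 99 and was left out. Mtch1, with its neighbour 9979 bases away, was kept, and Acot6, with 10012 bases, was left out.

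Reads assigned to genes numbered 31031920 (WT replicate 1), 40329170 (WT replicate 2), 17663416 (KO replicate 1) and 19255782 (KO replicate 2), so the KO libraries were the shallower ones. Dis3 itself was at 80.0 and 80.4 CPM (the counts-per-million value on the scaled library sizes of the gene table) in WT and at 39.4 and 42.8 in KO, a log2 fold change of -0.96 ± 0.0729 (SE; edgeR adjusted p = 2.34e-09). Markers of the cells that make up the tissue moved between the groups. All 10 markers of pachytene spermatocytes and all 8 of early meiotic prophase fell, with a summed level of 3754 and 3810 CPM in WT against 2541 and 2304 in KO for the first list. All 8 macrophage markers rose, from a summed 130.3 CPM in each WT library to 229.6 and 222.1 in KO, and 4 of 8 Sertoli cell markers rose. Of the spermatogonial markers 4 of 8 fell, and of 6 Leydig cell markers 1 rose and 2 fell. Beside these counts, 11.6% of all 25076 tested genes were called higher and 20.3% lower. In these bulk samples fewer cells of a type and less RNA per cell cannot be told apart, and the part of cell makeup in the results below was not tested. None of these markers was at 0 in any library.

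Every result on upstream reads is set against a background. The background is the mean, with a fraction of 0.25 trimmed from either end, over the 13469 autosomal upstream regions whose genes had too few reads to test. It stood at 7.98 and 7.52 antisense reads per region in WT and at 8.98 and 10.1 in KO, which is 0.269, 0.198, 0.491 and 0.489 CPM. On the gene-table scale this background was thus higher in KO by 1.07 on the log2 scale for antisense and 1.06 for sense reads. A head-to-head region held a median of 14, 15, 16 and 18 antisense reads in the same order of libraries, so the typical region lay close to background in all 4 libraries.

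On the scale of the gene table, antisense reads of the head-to-head regions were higher in the Dis3 KO libraries, whereas relative to background they were not. Net of background, the interquartile mean per region (the mean of the regions left when a fraction of 0.25 is cut from either end) was 0.220 and 0.212 CPM in WT and 0.393 and 0.404 CPM in KO. Both KO libraries lay above both WT libraries, at 1.85 times the WT mean. As raw reads net of background the values were 6.51 and 8.06 in WT and 7.18 and 8.34 in KO, which overlap (exact permutation p = 0.667). Before subtraction, the interquartile mean was 1.82 and 2.07 times background in WT and 1.8 and 1.83 times in KO for antisense reads, and 1.57 and 1.76 times in WT and 1.32 and 1.37 times in KO for sense reads. Net sense reads in CPM were at 0.157 and 0.149 CPM in WT and at 0.156 and 0.181 CPM in KO, where the groups overlapped and the ratio was 1.10. The antisense strand held 58.3% and 58.7% of these net reads in WT and 71.6% and 69.0% in KO. Within a library this share does not depend on the library scale, though it does rest on the background subtracted. With 4 libraries there are 6 relabellings, and the exact two-sided permutation test gave p = 0.333 for the antisense level in CPM and the share, the smallest p it allows, and 0.667 for the sense level in CPM.

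**Figure D1:**
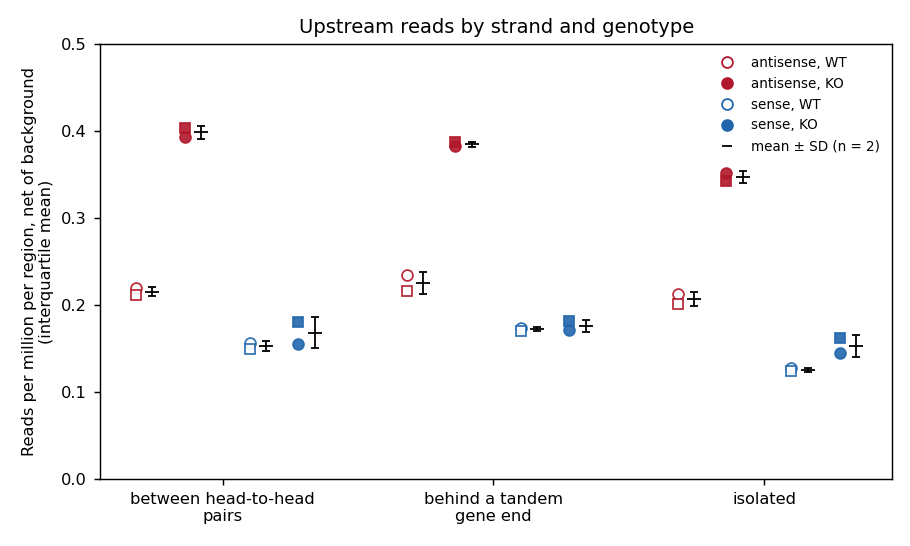
Net CPM per region (vertical axis, interquartile mean) on the antisense (red) and sense (blue) strand of upstream regions between head-to-head pairs, of regions behind the end of a gene in tandem and of isolated regions. Open symbols are WT and filled symbols KO libraries, and black marks are the mean ± SD (n = 2); antisense levels of the head-to-head regions were 0.220 and 0.212 in WT and 0.393 and 0.404 in KO, while sense levels overlapped.

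Reads of the regions can also be set against those of their own genes; since the rule chose these genes by their WT reads, the ratios are a description and no further support. The regions held 11.1 and 10.3 antisense reads per 1000 reads of their own genes in WT and 19.8 and 19.3 in KO, and the groups did not overlap. Net of background the values were 7.61 and 7.76 in WT and 12.5 and 11.9 in KO. Sense reads per 1000 own gene reads were 9.95 and 9.04 in WT and 13.4 and 13.8 in KO. Net of background they were 6.37 and 6.48 in WT against 6.10 and 6.39 in KO, where the difference turned to -0.177. Without the 10 fullest regions of each strand the net values were 3.891 and 3.877 in WT against 4.025 and 4.412 in KO. That difference was 0.334, so its sign rests on the fullest regions. In the 2667 head-to-head regions whose own gene fell below the read minimum, the net antisense reads per 1000 own gene reads went the other way. They were 206 and 248 in WT and 153 and 144 in KO. In net CPM per region, the antisense level of these regions in KO was 0.938 times that in WT by the mean. By the interquartile mean it was 1.17 times, so the size and direction rest on the measure. The summed reads are weighted to a few regions: the 10 fullest held 20.2% and 22.9% of all antisense reads in WT and 12.7% and 11.8% in KO. The mean net sense level was 0.486 and 0.500 CPM in WT and 0.413 and 0.422 CPM in KO; without the 10 fullest regions of each strand it was 0.294 and 0.296 CPM in WT and 0.270 and 0.289 CPM in KO, where both KO libraries still lay below both WT libraries.

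Higher antisense levels in CPM were also measured away from head-to-head pairs in KO. Upstream regions that lie behind the end of a gene in tandem, with the same minimum of own gene reads but no matching on level (1693 regions), had net antisense levels of 0.234 and 0.216 CPM in WT and 0.383 and 0.387 CPM in KO. Isolated regions, with no gene within 10 kb (4116 regions), had 0.213 and 0.202 CPM in WT and 0.352 and 0.342 CPM in KO. Head-to-head regions minus isolated regions differed by 0.00685 and 0.0101 CPM in WT and by 0.0406 and 0.0618 CPM in KO (exact permutation p = 0.333, the smallest possible). The antisense share of net reads differed by -4.22 and -3.25 percentage points from isolated regions in WT and by 0.735 and 1.24 points in KO. Against tandem regions the difference of shares was 0.906 and 2.76 points in WT and 2.56 and 0.953 points in KO, which overlap.

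Region by region, 1060 of the 1194 had enough antisense reads to test with edgeR's quasi-likelihood test. Antisense reads rose in 170 of them (16.0%; 11.5% of all 18596 tested upstream regions were called higher) and fell in 1 (0.113% of all tested were called lower). The shares called higher were 15.6% among tandem and 15.3% among isolated regions. The median log2 fold change was 0.97 over the tested head-to-head regions and 1.01 over all tested regions, both close to the change of background. Of the 1060, 456 changed by more than background did, as did 161 of the 170 called. When the libraries were scaled so that background did not change, 5 of 1056 tested head-to-head regions were called higher and 15 lower (0.172% and 1.05% of all tested regions). When the upstream tables were scaled on themselves, 10 of 1059 were higher and 11 lower (0.244% and 0.72% of all tested). With the background subtracted and the library scale kept, 51 were called higher and 0 lower of 511 tested (8.09% and 0.502% of all tested).

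Sense reads were tested in 997 regions. They rose in 1 (Uimc1; 0.0544% of all 18393 tested were called higher) and fell in 0 (0.00544% of all tested), while 226 higher and 14 lower had an unadjusted p under 0.05 (31.1% and 0.495% of all tested). DESeq2 called 2 higher and 3 lower of 188 with an adjusted p (0.596% and 1.79% of all such regions). The median log2 fold change was 0.69 over these regions and 0.93 over all tested regions, below the change of background in both. Scaled to background, 0 of 982 were called higher and 26 lower (0.0116% and 1.16% of all tested); scaled on the upstream tables themselves, 0 of 993 higher and 19 lower (0.0115% and 0.705% of all tested). The difference between the strands, in which the library scale cancels, was tested in 1178 regions. It was positive, meaning a larger change of antisense reads, in 2 regions (0.0656% of all 24392 tested) and negative in 0, with a median of 0.23 against 0.07 over all tested regions. DESeq2 called 0 in either direction (0.0105% of all tested were positive), and 102 positive and 33 negative had an unadjusted p under 0.05 with edgeR (4.09% and 2.6% of all tested).

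**Figure D2:**
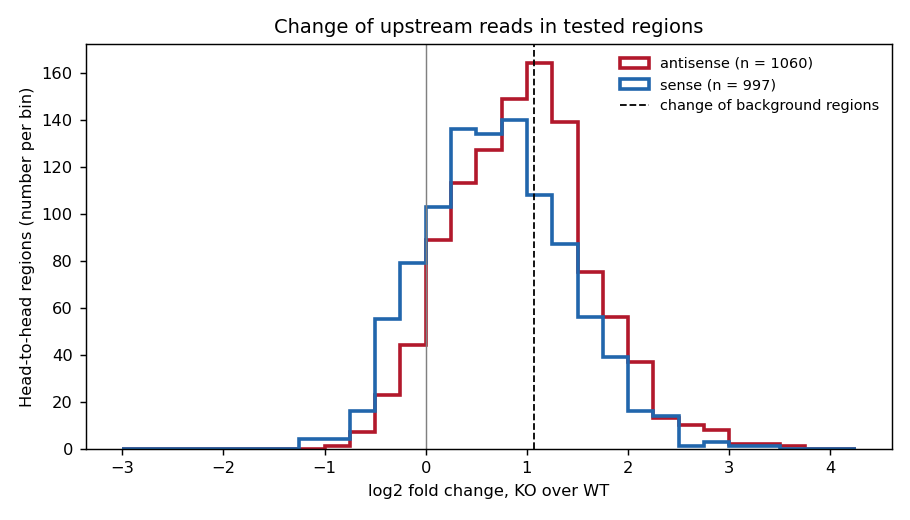
Number of head-to-head regions (vertical axis) by log2 fold change, KO over WT (horizontal axis), for antisense reads (red, 1060 regions) and sense reads (blue, 997 regions). The dashed line is the change of background regions, 1.07; the median was 0.97 for antisense and 0.69 for sense reads.

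The 170 regions called higher ranged from 0.69 to 3.60 in log2 fold change, with a median of 1.83. Their median antisense count was 14 and 17 reads in WT and 31 and 33 in KO, which is 0.472 and 0.447 CPM against 1.70 and 1.6 CPM. In the same regions the median sense level was 0.405 and 0.368 CPM in WT and 0.657 and 0.678 CPM in KO. These medians describe regions chosen by their antisense change and support nothing beyond it. Of the 1060 tested regions, 575 reached the minimum of reads in both KO libraries but not in both WT libraries, and so entered the test through the group where CPM values are higher; 96 of the 170 called regions were of this kind, and 74 reached the minimum in both WT libraries. Without WT replicate 1 the count called higher was 291 of 1112 tested (20% of all tested), and without WT replicate 2 it was 144 of 1117 (6.37%). Without KO replicate 1 it was 55 of 1160 (1.49% of all tested) and without KO replicate 2 it was 67 of 1159 (1.86%).

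The region with the largest called rise was that of Hist3h2ba, which encodes a histone H2B; its region (chr11:58945920-58948919, plus strand) held 13 and 16 antisense reads in WT and 100 and 104 in KO. That is 0.430 ± 0.0126 CPM against 5.25 ± 0.308 CPM (SD, n = 2), a fitted log2 fold change of 3.60 ± 0.290 (SE). The region passed the filter on low counts through the KO libraries alone, so these values are a description. The KO libraries lay far above both WT libraries on the antisense strand, while the sense strand held 9 and 30 reads in WT and 21 and 16 in KO, which overlap. Hist3h2ba itself was lower in KO by a log2 fold change of -0.39 (adjusted p = 0.00804), and its facing gene Rnf187 by -0.41 (adjusted p = 2.3e-05).

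Cct4 encodes a subunit of the chaperonin that folds actin and tubulin. Antisense reads in its region (chr11:22987519-22990518, plus strand) numbered 27 and 24 in WT and 146 and 140 in KO, which is 0.771 ± 0.198 CPM against 7.38 ± 0.854 CPM and a log2 fold change of 3.27 ± 0.260 (adjusted p = 7.81e-06). The sense strand of the same region held 9 and 10 reads in WT and 8 and 7 in KO, too few to test and at the level of background. The strand difference was 2.83 but did not pass its test (adjusted p = 0.105). Cct4 itself was lower in KO by a log2 fold change of -0.59 (adjusted p = 1.21e-07).

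Hnrnpc encodes a nuclear protein that packages nascent transcripts. Its region, next to the first promoter printed above, held 16 and 10 antisense reads in WT and 55 and 66 in KO. The fitted log2 fold change was 2.98 ± 0.373. This region too passed the filter on low counts through the KO libraries alone, so its antisense values are a description. Sense reads there numbered 21 and 9 in WT and 13 and 18 in KO, or 0.708 and 0.237 CPM against 0.711 and 0.872 CPM, where the groups overlap in reads but not in CPM, and the log2 fold change of 0.78 did not pass (adjusted p = 0.344). The facing gene Rpgrip1, whose product is known from photoreceptor cilia, lies 3675 bases beyond the region; its level was lower in KO by -0.64 (adjusted p = 3.95e-07). The antisense reads upstream of Hnrnpc thus rose on the strand on which Rpgrip1 is transcribed while Rpgrip1 itself fell.

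The region of A430005L14Rik, a protein-coding gene that faces the antisense transcript BC039966, held 14 and 8 antisense reads in WT and 60 and 62 in KO. The fitted log2 fold change was 3.23 ± 0.387, a description, since the filter was passed through the KO libraries alone. Its sense reads were 8 and 5 in WT and 16 and 18 in KO, a log2 fold change of 2.13 that did not pass (adjusted p = 0.0755). Neither strand overlapped between the groups on the CPM scale. Ppan, named after its values were seen, encodes a ribosome assembly factor. It held 71 and 69 antisense reads in WT and 281 and 284 in KO, or 2.40 and 1.81 CPM against 15.4 and 13.8 CPM, a log2 fold change of 2.80 ± 0.201 (adjusted p = 2.94e-06). Hist3h2ba, Cct4, Hnrnpc, A430005L14Rik and Ppan were the 5 regions called higher in all 13 settings, the main one included. Scaled to background, their log2 fold changes were 2.51, 2.19, 1.92, 2.17 and 1.72. Hist3h2ba, Hnrnpc and A430005L14Rik entered the main test through the KO libraries alone, so their place among the tested regions is no evidence; with no filter on low counts they were called as well.

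Wdr60 and Asb2 passed the filter on low counts through the KO libraries alone, so their values are a description. Wdr60, for a subunit of the dynein that moves cargo in cilia, had 4 and 3 antisense reads in WT and 25 and 19 in KO, a fitted log2 fold change of 3.39 ± 0.644. Asb2, for a subunit of a ubiquitin ligase, had 4 and 3 in WT and 23 and 12 in KO, a fitted log2 fold change of 3.07 ± 0.683. Their WT counts were below the background of about 8 reads per region, and neither was called when the libraries were scaled to background (adjusted p = 0.0745 and 0.215) or without KO replicate 1 (0.0748 and 0.328).

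Maco1 and Fam32a passed the test of the strand difference. Maco1 encodes macoilin, a protein of the endoplasmic reticulum. Its region held 51 and 49 antisense reads in WT and 128 and 128 in KO, while its sense reads numbered 36 and 39 in WT and 11 and 22 in KO. On the CPM scale antisense went from 1.50 ± 0.306 to 6.60 ± 0.569 and sense was 1.12 ± 0.134 against 0.834 ± 0.328 (SD, n = 2). The antisense groups did not overlap and the sense groups did. The strand difference was 2.57 ± 0.533 (SE; adjusted p = 0.0492). Fam32a held 4 and 7 antisense reads in WT and 19 and 26 in KO, with 27 and 35 sense reads in WT and 10 and 8 in KO. Its strand difference was 3.78 ± 0.790 (adjusted p = 0.0492). Its WT antisense counts lay below the background of 7.98 and 7.52 reads, and its KO sense counts lay near that of 8.99 and 10.1. In the test of antisense reads it passed the filter on low counts through the KO libraries alone. Its strands did not overlap between the groups in either table, and the own gene rose by 0.44 (adjusted p = 0.000227), unlike Maco1, which was lower by -0.28 (adjusted p = 0.00111). Both strand differences sat just under the threshold. Without KO replicate 1 the adjusted p was 0.714 for Maco1 and 0.281 for Fam32a, and without KO replicate 2 it was 0.114 and 0.852.

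**Figure D3:**
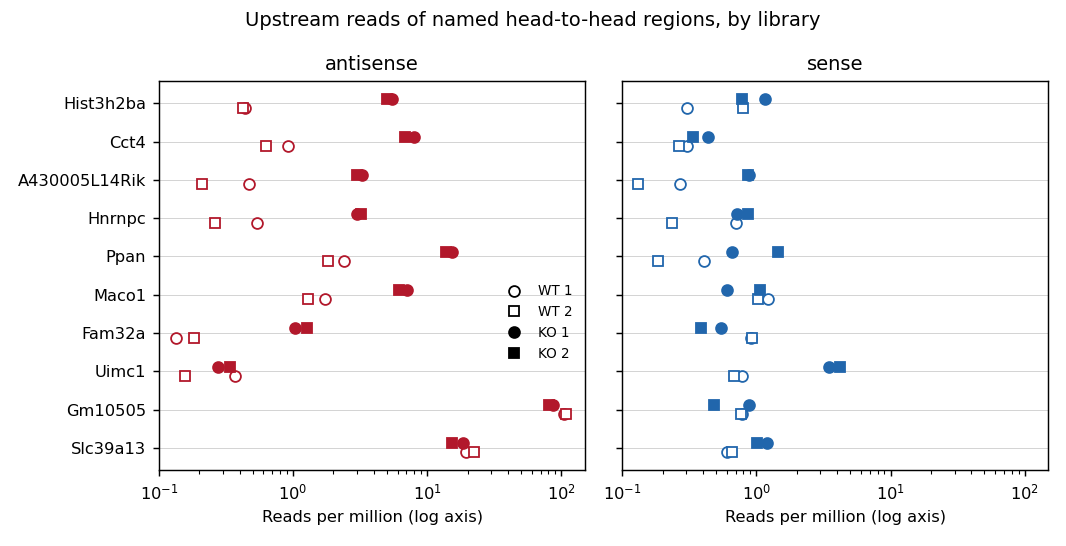
Antisense (left, red) and sense (right, blue) CPM on a log axis in 10 named head-to-head regions, by library; open symbols are WT, filled symbols KO, circles replicate 1 and squares replicate 2. The KO libraries lie above the WT libraries on the antisense strand from Hist3h2ba down to Fam32a, on the sense strand of Uimc1, and below them on the antisense strand of Gm10505.

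Uimc1, whose product RAP80 binds ubiquitin at DNA breaks, was the region with a called rise of sense reads. It held 23 and 26 sense reads in WT and 63 and 87 in KO, 0.730 ± 0.0652 CPM against 3.83 ± 0.542 CPM and a log2 fold change of 2.39 ± 0.299 (adjusted p = 0.0132). Its antisense strand held 11 and 6 reads in WT and 5 and 7 in KO, too few to test. The facing gene Zfp346 starts 2010 bases beyond the region, so its own upstream region overlaps that of Uimc1 and reads on the minus strand can be counted for both. The antisense reads of Zfp346 were 10 and 18 in WT and 32 and 27 in KO, a fitted log2 fold change of 1.88 ± 0.436. Zfp346 passed the filter on low counts through the KO libraries alone, so its values are a description. The call for Uimc1 was lost when scaled to background (adjusted p = 0.0963), scaled on the upstream tables (0.0557) and with background subtracted (0.0909).

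Rab10os was the head-to-head region with a called fall. Its gene is an antisense transcript, and its region held 171 and 207 antisense reads in WT and 72 and 61 in KO, 5.61 ± 0.230 CPM against 3.45 ± 0.697 CPM and a log2 fold change of -0.71 ± 0.217 (adjusted p = 0.0478). Without WT replicate 2 the adjusted p was 0.0791, and without KO replicate 2 it was 0.285. Sense reads of the region, at 65 and 75 in WT and 62 and 36 in KO, overlapped on the CPM scale.

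The fullest regions in WT, here and in the paragraphs that follow, were chosen by their WT level. A lower level in KO is therefore a description. Unlike the typical region, they lay far above background. Gm10505 and Gm49793 face each other on chromosome 17, and almost all of their upstream reads lay on the minus strand: 3071 and 4134 antisense reads in WT and 1580 and 1677 in KO for Gm10505, and 2700 and 3507 sense reads in WT and 1262 and 1254 in KO for Gm49793. In CPM this was 106 ± 3.61 against 83.8 ± 3.70 and 91.6 ± 0.799 against 64.9 ± 5.88 (SD, n = 2), and neither fold change passed its test (adjusted p = 0.0944 and 0.0755). The opposite strand held 23, 29, 16 and 10 sense reads for Gm10505 and 16, 34, 9 and 11 antisense reads for Gm49793. Both KO libraries were below both WT libraries on the minus strand, and the gene Gm49793, which is transcribed from that strand, was itself lower by -0.85 (adjusted p = 0.000256).

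Gm31181, a lincRNA, held 878 and 1372 antisense reads in WT and 465 and 446 in KO, 32.8 ± 4.57 against 23.5 ± 2.72 CPM (log2 fold change -0.48, adjusted p = 0.0591). Slc39a13, a zinc transporter gene, held 575 and 845 in WT and 340 and 317 in KO, 20.8 ± 2.0 against 17.0 ± 2.30 CPM (log2 fold change -0.30, adjusted p = 0.187). Neither passed, although their KO libraries were below their WT libraries. The gene facing Slc39a13 is Spi1, which encodes the myeloid transcription factor PU.1; the gene rose by 0.74 (adjusted p = 0.000465), in the direction of the macrophage markers, while its own region held only 14 and 10 antisense reads in WT and 5 and 12 in KO.

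Rab34, a small GTPase gene, held 261 and 328 antisense reads in WT and 155 and 188 in KO, at 8.71 ± 0.127 and 8.79 ± 0.441 CPM, with a log2 fold change of 0.01 ± 0.170 (adjusted p = 0.954) whose sign turned with the scaling. The lincRNA 2610037D02Rik faces Arid2, a subunit of a chromatin remodelling complex, with regions offset by 22 bases. The strand of Arid2 held 237 and 337 reads in WT and 92 and 145 in KO (counted as antisense of 2610037D02Rik; log2 fold change -0.48, adjusted p = 0.0919). The strand of 2610037D02Rik held 51 and 49 reads in WT and 53 and 73 in KO, which rose as antisense of Arid2 (log2 fold change 1.11 ± 0.279, adjusted p = 0.0267) but not as sense of 2610037D02Rik (1.11, adjusted p = 0.0747), although these are the same counts.

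On the sense strand the fullest regions after Gm49793 were those of Gm8942, Ptges3-ps, Gm13821 and Morf4l1, 2 of them processed pseudogenes. Gm8942 held 1933 and 2936 sense reads in WT and 779 and 932 in KO, 71.2 ± 8.48 against 43.9 ± 1.78 CPM (log2 fold change -0.70, adjusted p = 0.0706). Morf4l1, for the chromatin protein MRG15, held 290 and 372 in WT and 120 and 72 in KO, 9.78 ± 0.00112 against 5.03 ± 2.18 CPM (log2 fold change -0.97, adjusted p = 0.073). In both the KO libraries lay below the WT libraries. The gene Gm8942 was counted at 1924, 2928, 774 and 915 reads, almost the same numbers as its region, so its own fall (log2 fold change -0.71) restates that of the region. Morf4l1 itself was lower by -0.54 (adjusted p = 6.02e-07). Ptges3-ps (485 and 597 reads in WT, 235 and 245 in KO) and Gm13821 (423 and 426 in WT, 214 and 200 in KO) had log2 fold changes of -0.38 and -0.25 that did not pass (adjusted p = 0.147 and 0.345).

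Among the head-to-head regions, net antisense levels in CPM were higher where the own gene had more reads. Net antisense levels were 0.132 and 0.108 CPM in WT and 0.174 and 0.204 CPM in KO for the 339 genes with 100 to 500 reads. They were 0.192 and 0.200 CPM in WT and 0.376 and 0.404 CPM in KO for the 411 genes with 500 to 2000 reads, and 0.342 and 0.340 CPM in WT and 0.703 and 0.653 CPM in KO for the 444 genes with 2000 reads or more. On the gene-table scale KO libraries lay above WT libraries in each class, at 1.58, 1.99 and 1.99 times the WT mean. As raw reads net of background the KO mean was 0.924, 1.15 and 1.14 times the WT mean, and the groups overlapped in each class. The median log2 fold change of the tested regions was 0.95, 1.03 and 0.91, against 1.07 for background. Sense levels in the top class were 0.201 and 0.190 CPM in WT and 0.181 and 0.212 CPM in KO and overlapped. Antisense reads were called higher in 5.78%, 16.3% and 22.6% of the tested regions of the 3 classes, and regions with more reads are called more easily.

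**Figure D4:**
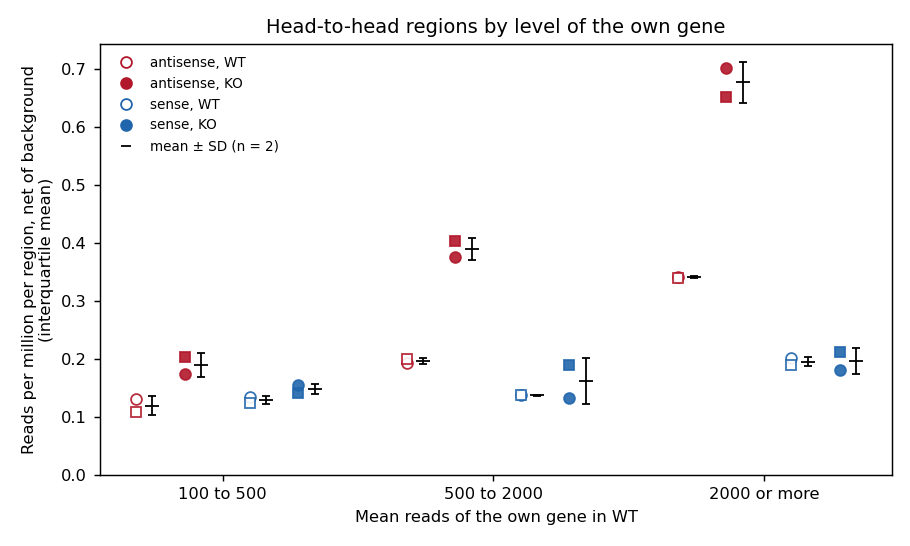
Net CPM per region (vertical axis, interquartile mean) by the mean WT reads of the own gene (horizontal axis), antisense in red and sense in blue, WT open and KO filled, with mean ± SD (n = 2). Antisense levels rise with the level of the gene in both groups and reach 0.342 and 0.340 in WT and 0.703 and 0.653 in KO in the top class.

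By the distance and the level of the facing gene the shares called higher lay closer together. Regions whose neighbour began under 2000 bases away were called higher in 11.5% of 278 tested, those at 2000 to 5000 bases in 19.0% of 327 and those at 5000 bases or more in 16.7% of 455. By the WT reads of the facing gene, 15.7% were called where it had under 10 reads, 17.5% at 10 to 100 reads and 15.7% at 100 reads or more. No difference between these classes was tested.

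In 220 reciprocal pairs both regions were tested for antisense reads, and both log2 fold changes were above 0 in 189 of them, beside 92.9% of tested head-to-head regions and 93.2% of all tested regions above 0 taken singly. Both were called higher in 7 pairs, beside 16.0% of head-to-head regions called singly, so nothing is read from either count. The pairs are Supt5 with Rps16, Commd1 with Cct4, Cdkn2c with Faf1, Med1 with Cdk12, Dhtkd1 with Upf2, Gde1 with Ccp110 and Nmral1 with Hmox2, named here because their number is small and chosen after their values were seen. Commd1, Med1, Dhtkd1, Gde1, Ccp110, Nmral1 and Hmox2 passed the filter on low counts through the KO libraries alone, so their calls are a description. None of these 7 pairs had overlapping regions. Among their genes, Supt5 encodes an elongation factor of RNA polymerase II, Med1 a Mediator subunit, Cdk12 a kinase of the polymerase tail and Upf2 a factor of nonsense-mediated decay.

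Supt5 held 31 and 59 antisense reads in WT and 58 and 75 in KO (log2 fold change 1.37 ± 0.286, adjusted p = 0.0125). Its partner Rps16, a ribosomal protein gene, held 29 and 31 in WT and 86 and 91 in KO (2.35 ± 0.269, adjusted p = 0.000215). Sense reads of Supt5, at 123 and 175 in WT and 64 and 88 in KO, had a log2 fold change of -0.17 that did not pass (adjusted p = 0.585), while the antisense reads of both genes rose. Med1 held 19 and 15 in WT and 27 and 38 in KO (fitted log2 fold change 1.70 ± 0.410). Its partner Cdk12 held 32 and 33 in WT and 76 and 56 in KO (1.82 ± 0.310, adjusted p = 0.00388). Neither Med1 nor Cdk12 was itself called changed. Commd1, facing Cct4, held 17 and 11 in WT and 19 and 30 in KO (fitted log2 fold change 1.56 ± 0.486), a smaller change than at Cct4. Med1 and Commd1 passed the filter on low counts through the KO libraries alone, so their values are a description.

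The genes that own the regions were lower more often than higher. The rule used their WT level, so this is a description. Of 1194, 87 were called higher and 458 lower (7.29% and 38.4%), with a median log2 fold change of -0.15. Of all 25076 tested genes, 11.6% were called higher and 20.3% lower. Own genes of tandem regions, with the same read minimum, were higher in 7.86% and lower in 38.0%. For isolated regions the shares were 13.3% and 30.0%. Of the facing genes 810 were tested, and 49 were higher and 219 lower, with a median of -0.08. Among the 170 regions with a called rise of antisense reads, the own gene was lower in 89, higher in 10 and not called in 71. Among the 889 tested and not called, it was lower in 326, higher in 63 and not called in 500. The median antisense log2 fold change was 0.90 where the own gene was lower and 1.02 where it was higher. Regions and genes with more reads are called more easily, and a link between the calls was not tested. Both own genes of a reciprocal pair were lower in 42 of 268 pairs and both higher in 0. Singly, 38.4% of own genes were lower and 7.29% higher, so nothing is read from either count.

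Of the genes for the machinery that ends and degrades promoter upstream transcripts, many fell and 0 rose among the tested members of 6 lists. Of the exosome list 6 of 12 tested members fell, among them Dis3, the nuclear ribonuclease gene Exosc10 (log2 fold change -0.40 ± 0.0621, adjusted p = 2.74e-05) and the ring subunit gene Exosc5 (-0.66 ± 0.0889, adjusted p = 3.69e-05). Of 6 nuclear adaptors listed, 5 were found and tested, while Skiv2l2 (Mtrex) was not found under its first symbol and is not counted. Of the 5, 3 fell, among them Rbm7 (-0.29) and Zcchc8 (-0.26). Their products belong to the complex that guides the exosome to upstream transcripts. Of 6 genes of the cap and ARS2 list 2 fell, Ncbp1 (-0.57) and Srrt (-0.33), which encodes ARS2. Integrator genes fell in 10 of 14, with -0.83 for Ints10 and -0.68 for Ints11, the cleaving subunit. The U1 snRNP genes fell in 3 of 3, and genes of cleavage and termination in 9 of 11. The 20.3% of all tested genes called lower stands beside these counts, and the fall of the germ cell markers given above moved with them.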

How the data were processed

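Raw read counts deposited by the authors were used, made with featureCounts 1.6.4 per the file headers. Genes were counted on their own strand with GENCODE M18, and the regions of 3000 bases upstream were counted on the gene strand (sense) and the opposite strand (antisense), per the file headers. The recorded commands set no option for multi-mapping reads, which leaves near-identical copies such as pseudogenes uncertain. Trimming and alignment tools named in the submitters' processing notes are cutadapt and HISAT2, with the build GRCm38.p5. The labels' protocols describe random and poly(T) priming, strand selection and depletion of targeted transcripts, and name the molecule as polyA RNA.

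Members were found by position in the gene table. The members and lists were chosen with earlier results of these data known. All regions or genes of a table entered the fit with edgeR 4.0.16 in R 4.3.3 (robust quasi-likelihood fit, filterByExpr, Benjamini-Hochberg adjustment over all tested features, threshold 0.05). Library sizes and TMM factors came from the gene table, which keeps a general shift of upstream reads visible. TMM factors were 0.955 and 0.943 in WT and 1.04 and 1.07 in KO. The strand difference came from both upstream tables in 1 fit with library and strand as terms. Values per library were compared by exact permutation. The fits were tested on simulated data.

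Named regions are the 6 largest called rises and falls per strand with a mean of at least 10 reads, the 5 fullest per strand in WT, the 5 largest called strand differences each way, the 3 fullest reciprocal pairs, Dis3 and up to 2 called genes of each pathway list. Alternatives were DESeq2 1.42.0, other scalings, other filters, background subtraction, a replicate block, other region rules and each library left out. The motif search meant for 1000 bases was made on the 250 bases of RefSeq windows, and the TATA, CCAAT box and GC box motifs were chosen after seeing the data. The libraries of a group differed by more than sampling noise: chi-square divided by its degrees of freedom was 2.62 in WT and 1.87 in KO for antisense regions. Depth limits most regions to some 15 reads per strand.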

Additional observations from a re-analysis of the deposited data

Results flagged for a closer look

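The change of antisense and of sense reads differed by a test of the difference itself in 2 head-to-head regions. The strand difference was 2.57 (log2) for Maco1, with both KO libraries above both WT libraries on the antisense strand. It was 3.78 for Fam32a, where antisense reads were higher and sense reads lower in both KO libraries. Counts of Fam32a were below background for antisense reads in WT and near background for sense reads in KO. Both strand differences had an edgeR adjusted p of 0.0492.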

How the results depend on the processing

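Antisense calls among the head-to-head regions (170 higher, 1 lower) were 112 and 3 with DESeq2, 10 and 11 when scaled on the upstream tables, 5 and 15 when scaled to background, and 51 and 0 after background subtraction; 2 were lower with no filter and 3 with a mean of at least 20 reads. Leaving out each library gave 55 to 291 higher and 0 to 3 lower. Sense calls (1 higher, 0 lower) were 2 and 3 with DESeq2, 0 and 19 when scaled on the upstream tables, 0 and 26 when scaled to background, 38 and 4 with no filter, 5 and 5 with a mean of at least 20 reads, and 0 higher after background subtraction; leaving out each library gave 1 to 100 higher and 1 to 5 lower. Of all tested regions, 20.1% were higher on the antisense strand with DESeq2, 10.2% with no filter and 39.8% with a mean of at least 20 reads, and 3.86% were higher on the sense strand with no filter. Positive strand differences (2) numbered 0 with DESeq2 and 0 after background subtraction (0.0105% and 0.0% of all tested). With no filter they numbered 6 (0.119% of all tested). With a mean of at least 20 reads 15 were positive and 3 negative (4.28% and 0.914% of all tested). Strand difference calls also changed when each library was left out.

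Own genes called higher (87) numbered 16 with DESeq2, 39 with median-of-ratios scaling and 46 to 62 when each library was left out. Facing genes called higher (49) numbered 6, 32 and 21 to 45 in the same order. Over all tested genes, 2906 of 25076 were called higher, beside 440 of 27002 with DESeq2 and 2163 of 25076 with median-of-ratios scaling. The number over all genes was also lower when each library was left out. Summed sense reads per 1000 own gene reads turned from 4.09 to -0.177 after background subtraction. The net sense level turned from -0.0759 to 0.0153 CPM with the interquartile mean. The Rab34 antisense log2 fold change of 0.01 became -0.092 with DESeq2, -0.0921 with median-of-ratios scaling, -0.92 scaled on the upstream tables, -1.08 scaled to background, -0.0284 after background subtraction and -0.0928 to 0.0402 when each library was left out, below 0 in 3 of these 4. Beyond fewer regions tested or fewer libraries, the cause was not tested.

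Libraries with the same replicate number did not deviate together (correlation -0.0043 over genes, -0.011 over antisense and 0.0012 over sense regions). With the number as a replicate block, 246 regions were called higher on the antisense strand, 54 higher and 5 lower on the sense strand, and 7 had a positive strand difference (17.3%, 9.0%, 0.228% and 0.168% of all tested). Omitting the 10 fullest regions per strand, an alternative chosen after the data were seen, left the antisense difference per 1000 own gene reads at 8.81 (8.81 with them).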
